A study of Mus musculus with 26 samples.

Results

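The genes described here encode non-collagenous proteins of the tectorial membrane, the extracellular gel that lies over the sensory hair cells of the cochlea: Tecta, Tectb, Otog, Otogl, Otoa and Ceacam16. They were chosen by name, as the established protein components of this gel and of its attachment to the epithelium, and found by matching the gene identifiers of the RNA tables to symbols. All 6 were found among 48709 identifiers. The study cultured whole cochleae of mice at postnatal day 1 in the gamma-secretase inhibitor DAPT, which blocks Notch signalling, or in DMSO alone, and sorted supporting cells, the non-sensory cells around the hair cells. At 24 h, cells carrying GFP driven by Lfng were sorted from both treatments (3 RNA libraries each). At 48 h, cells were marked by a TdT reporter recombined by Lfng-CreER, and an Atoh1-GFP reporter divided the DAPT-treated cells into those with GFP (permissive, 3 RNA libraries) and those without (nonpermissive, 3 libraries). The 48 h controls were TdT-marked, GFP-negative cells of cultures kept in DMSO (2 libraries). ATAC-seq of open chromatin and CUT&RUN for H3K27ac, a histone mark of active regulatory DNA, were done at 48 h in 2 libraries of each of these 3 groups. Both reporters that define the supporting cells depend on Lfng, itself a gene of the Notch response. The TdT mark is lasting, so marked cells that later lower Lfng stay in the 48 h groups.

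Alpha-tectorin (Tecta) and beta-tectorin (Tectb) are secreted zona pellucida domain proteins that assemble the striated-sheet matrix in which the collagen fibrils of the gel are embedded. Otogelin (Otog) and the related otogelin-like protein (Otogl) are large secreted glycoproteins of the acellular membranes of the inner ear, and otoancorin (Otoa) anchors the gel to the surface of non-sensory cells. CEACAM16 is a secreted adhesion protein that joins the striated-sheet matrix late, as the gel matures. The gel is built by non-sensory cells before hearing begins, so these transcripts mark a secretory product of the supporting epithelium and are not hair cell genes.

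Values are given as CPM, a gene's count over the library total (per 1000000) after TMM scaling, for one gene across libraries, and as TPM, which is scaled by transcript length, for one gene against another. Total counts per RNA library ran from 10666000 to 13158859 at 24 h and were lower at 48 h, from 2165340 to 4896371. The Notch target Hes5 was at 1710 ± 149 CPM with DMSO and 6.32 ± 2.96 CPM with DAPT at 24 h (SD, n = 3 each), and Atoh1, the hair cell determination factor whose reporter defined the permissive sort, was at 815 ± 187 CPM in permissive and 2.92 ± 0.898 CPM in control cells at 48 h. Lfng, whose GFP reporter defined the 24 h sort, was at 977 ± 205 CPM with DMSO and 201 ± 33.1 CPM with DAPT at 24 h. The part of this sort in the differences of 24 h was not tested. The 48 h libraries came from another sort and another library kit than those of 24 h, so time, sort and kit cannot be told apart in any level set across the times. Nothing in the labels places replicates in separate animals, and p-values here reflect only how far these libraries scatter, which may be a technical spread. In these bulk samples, fewer cells of a type and less RNA per cell cannot be told apart.

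In the mouse build GRCm38.p6 (mm10), Tecta lies at chr9:42329622-42401690 on the minus strand, with 2 annotated starts, at 42401690 and 42399947. Tectb lies at chr19:55180726-55196313, Otog at chr7:46240987-46311434 and Otoa at chr7:121083424-121163093, each on the plus strand. Otogl lies at chr10:107760530-107912379 and Ceacam16 at chr7:19852097-19871426. Peaks described below lie over the 250 bases before the starts of Tecta, Tectb, Otog and Otoa. They do so in some libraries for Tecta, Tectb and Otoa and, for ATAC, in all 6 libraries for Otog. The windows of Tecta, Tectb and Otog are printed, and that of Otoa, without a match to either motif marked here, is not. The printed windows are RefSeq sequences of GRCm38.p6, 5′ to 3′ in the direction of transcription, ending at the base before the start. Capitals mark matches, on either strand, to the E-box CANNTG (bound by helix-loop-helix factors such as ATOH1 and the HES proteins) and to TGGGAA, the core recognised by RBPJ, the DNA-binding partner of Notch.
Tecta, first start, chr9:42401691-42401940, minus strand: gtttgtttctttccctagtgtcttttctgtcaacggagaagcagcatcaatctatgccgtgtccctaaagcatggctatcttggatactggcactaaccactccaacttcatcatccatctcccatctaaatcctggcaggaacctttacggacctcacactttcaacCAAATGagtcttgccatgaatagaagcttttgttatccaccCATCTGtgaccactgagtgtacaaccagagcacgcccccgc
Tecta, second start, chr9:42399948-42400197, minus strand: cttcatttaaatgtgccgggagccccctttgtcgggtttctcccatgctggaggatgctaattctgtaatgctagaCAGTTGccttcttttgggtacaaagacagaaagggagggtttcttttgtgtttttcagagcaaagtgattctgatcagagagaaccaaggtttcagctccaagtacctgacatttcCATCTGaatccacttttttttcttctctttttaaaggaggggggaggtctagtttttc
Tectb, chr19:55180476-55180725, plus strand: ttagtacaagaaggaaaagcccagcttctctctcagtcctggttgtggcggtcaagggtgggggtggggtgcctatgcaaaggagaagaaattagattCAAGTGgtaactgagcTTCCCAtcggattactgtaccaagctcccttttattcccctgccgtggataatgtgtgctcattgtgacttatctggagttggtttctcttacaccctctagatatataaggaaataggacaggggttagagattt
Otog, chr7:46240737-46240986, plus strand: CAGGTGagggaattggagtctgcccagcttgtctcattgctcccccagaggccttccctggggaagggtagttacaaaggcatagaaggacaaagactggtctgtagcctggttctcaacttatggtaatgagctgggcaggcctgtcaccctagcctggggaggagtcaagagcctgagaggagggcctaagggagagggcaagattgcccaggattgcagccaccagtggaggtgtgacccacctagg

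Both Tecta windows held 2 E-box matches, and 1 in each read CATCTG, the reverse complement of CAGATG, at 41 and 58 bases before the start. Tectb held 1 E-box match 152 bases and the only RBPJ core, read as TTCCCA, 136 bases before its start. Otog held 1 E-box match, CAGGTG, at the far edge of its window. The Otoa window, not printed, held neither motif. Of all 32851 promoter windows of this length in the table, 66.2% held CANNTG, 14.4% CAGATG and 21.6% TGGGAA, so each match is common. The Sox motif ACAANG had 2 matches each in the second Tecta window and in the Otog window and 1 each before Tectb and Otoa, against 36.3% of all windows. The N-box CACNAG was matched in the first Tecta window and in the Otog window (36.7% of all windows), and neither CAGCTG (13%) nor the nuclear receptor core AGGTCA (14%) was matched in any of the 5 windows. These are matches of letters, and no binding was measured.

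Tectb was among the most abundant transcripts of these cells. By TPM it ranked between 4 and 8 among all genes in the libraries of 24 h and between 4 and 13 in the control and nonpermissive libraries of 48 h. Within every library Tectb was above Tecta and Tecta above Otog in TPM (14 of 14 libraries), Otog was above Otoa in 14 of 14, and Otoa was above Otogl in 13 of 14. With DMSO at 24 h, the mean TPM was 5990 ± 270 for Tectb, 1410 ± 238 for Tecta, 238 ± 17.0 for Otog, 99.8 ± 33.6 for Otoa and 62.6 ± 14 for Otogl (SD, n = 3). Otoa and Otogl were the pair of neighbours whose spreads touched, since DMSO replicate 2 had 63.1 TPM of Otoa and 78.5 TPM of Otogl. The 6 genes together held 1.06% to 1.21% of all counts with DMSO and 0.925% to 1.26% with DAPT.

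Ceacam16 stayed without signal. It had 0 counts in 13 of the 14 libraries and 1 count in permissive replicate 1. A count of 0 allows up to 3 counts, which is 0.227 to 0.283 CPM in the libraries of 24 h and 0.561 to 1.71 CPM in those of 48 h. It did not pass the filter on low counts, so the tests below cover the other 5 genes. Intervals and floors of this kind cover counting error only.

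**Figure D1:**
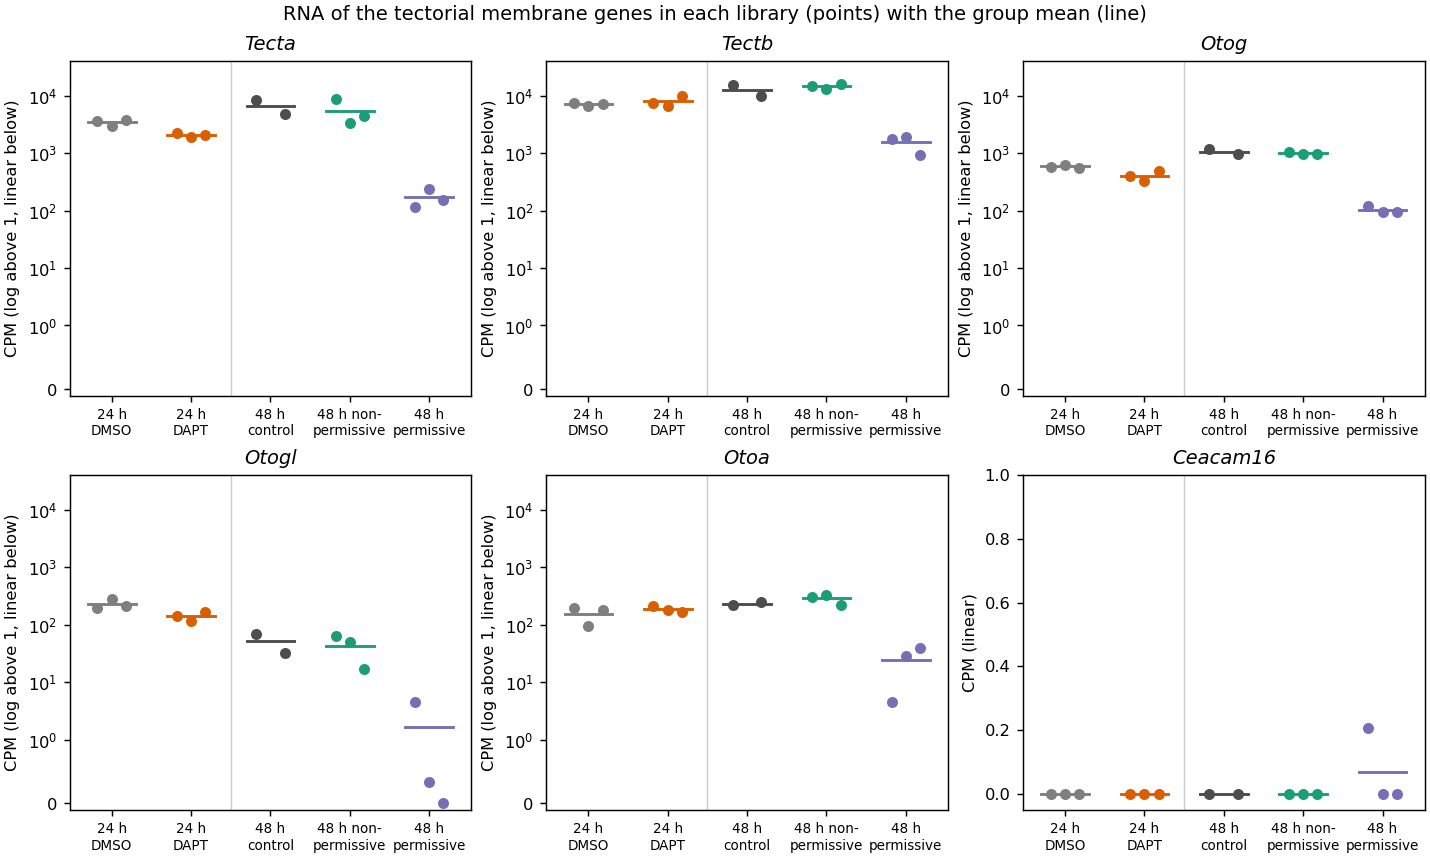
CPM of each gene in each RNA library (points) and the group mean (line), on an axis that is logarithmic above 1 and linear below it for 5 genes and linear for Ceacam16; the grey line separates 24 h from 48 h. The permissive libraries lie below every other 48 h library for all 5 detected genes, and the groups of 24 h lie close together.

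At 24 h the question was what a block of Notch signalling does to supporting cells as a whole. Tecta, Otog and Otogl fell moderately with DAPT, while Tectb and Otoa did not pass the test. The difference divided the pair of tectorins. Tecta was at 3680, 2970 and 3820 CPM in DMSO replicates 1 to 3 and at 2220, 1900 and 2100 CPM in DAPT replicates 1 to 3. Every DAPT library was below every DMSO library, and DAPT left 59.3% of the mean DMSO level. Its log2 fold change was −0.75 ± 0.12 (SE), with an adjusted p of 0.00244 by edgeR's quasi-likelihood test with Benjamini-Hochberg adjustment, the test used for each gene below.

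The otogelins followed the same direction. Otogl was at 193, 284 and 212 CPM with DMSO and at 141, 117 and 163 CPM with DAPT, a log2 fold change of −0.71 ± 0.17 (adjusted p 0.0142). Otog was at 581, 619 and 561 CPM with DMSO and at 394, 325 and 489 CPM with DAPT, a log2 fold change of −0.54 ± 0.14 (adjusted p 0.0221). The groups did not overlap for either gene, lower in 3 of 3 DAPT libraries. The share of all genes without overlap was not counted, here or for the other group comparisons. These calls were near the threshold. Otog lost its call without DAPT replicate 1 (adjusted p 0.0818), DAPT replicate 2 (0.056), DMSO replicate 1 (0.0602) or DMSO replicate 2 (0.0726), and Otogl lost it without DAPT replicate 1 (0.053).

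Tectb, in contrast, was at 7540, 6720 and 7130 CPM with DMSO and at 7560, 6680 and 9680 CPM with DAPT. The ranges overlapped, with DAPT replicate 3 highest and DAPT replicate 2 lowest, and the log2 fold change was 0.16 ± 0.15 (adjusted p 0.463). Otoa was at 193, 96.5 and 179 CPM with DMSO and at 210, 181 and 168 CPM with DAPT, with DMSO replicate 2 the one low library and a log2 fold change of 0.26 ± 0.23 (adjusted p 0.457). The value ± 2 SE ran from −0.14 to 0.46 for Tectb and from −0.20 to 0.72 for Otoa on the log2 scale. So 3 of the 5 genes tested fell and 0 rose by edgeR, beside 14.2% of 15174 genes that fell and 11.5% that rose in this comparison. The median log2 fold change was −0.54 over the 5 genes and 0.01 over all genes tested. Beside these falls, 9 of 9 markers of supporting and prosensory cells fell (median −0.91, none at 0, summed 4900 to 5620 CPM with DMSO and 2140 to 2890 CPM with DAPT) and 8 of 12 hair cell markers rose (summed 1910 to 2300 and 5720 to 9270 CPM). Their part in the falls was not tested.

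At 48 h the DAPT-treated cells with Atoh1-GFP held much less of these transcripts than control cells. All 5 detected genes fell in permissive against control cells, with Tecta at the largest log2 fold change and Otogl next. The order of these is not settled, since 2 of 3 permissive libraries held 1 and 0 counts of Otogl and its log2 fold change was −7.9 without permissive replicate 1. Tecta was at 8550 and 4880 CPM in control replicates 1 and 2 and at 117, 238 and 152 CPM in permissive replicates 1 to 3. The permissive mean was 2.51% of the control mean, and the log2 fold change was −5.31 ± 0.56 (adjusted p 9.37e-05, 39.8-fold lower). By log2 fold change Tecta ranked 132 from the lowest of 13411 genes tested.

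Its partner Tectb kept more. It was at 15600 and 9940 CPM in control cells and at 1760, 1930 and 919 CPM in permissive cells, 12.0% of the control mean. The log2 fold change was −3.05 ± 0.45 (adjusted p 0.000627, 8.30-fold lower). Tectb was still between rank 54 and rank 204 of all genes by TPM in the permissive libraries, where it had been at rank 4 and 11 in the control libraries.

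Otog was at 1160 and 961 CPM in control cells and at 119, 92.7 and 94.6 CPM in permissive cells, a log2 fold change of −3.38 ± 0.40 (adjusted p 0.000155). Otoa was at 220 and 245 CPM in control cells and at 4.54, 28.1 and 38.8 CPM in permissive cells, a log2 fold change of −3.30 ± 0.64 (adjusted p 0.00396). Otogl was at 69.8 and 32.2 CPM in control cells and at 4.54, 0.335 and 0 CPM in permissive cells, from 22, 1 and 0 counts, with a log2 fold change of −4.76 ± 0.98 (adjusted p 0.00554). Permissive libraries did not overlap control libraries for any of the 5 genes, and the share of all genes without overlap was not counted. Thus 5 of 5 tested genes fell, beside 7.28% of 13411 genes that fell and 5.72% that rose, and the median log2 fold change was −3.38 over the 5 genes and 0.06 over all genes tested. The 6 genes held 1.56% and 2.79% of all counts in the control libraries and 0.116% to 0.23% in the permissive libraries.

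Markers of hair cells, supporting cells and several other cell types differed along with these genes. Summed over 12 hair cell markers, the level was 5930 to 7780 CPM in permissive and 149 to 278 CPM in control libraries, with Barhl1 at 0 in the control libraries. All 12 of these markers rose, among them Pou4f3, a transcription factor that hair cells need for survival, from 9.35 ± 2.91 to 2430 ± 364 CPM (log2 fold change 8.02 ± 0.63, adjusted p 3.17e-05). Summed over 9 markers of supporting and prosensory cells, the level was 424 to 508 CPM in permissive and 2840 to 3610 CPM in control libraries, none at 0, and 7 of the 9 fell. Summed over 9 mesenchyme markers it was 49.7 to 578 CPM in permissive, 558 to 2600 CPM in control and 1360 to 3390 CPM in nonpermissive libraries, and 1 of 8 tested fell.

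Further marker lists differed in sum in both directions. Endothelial markers summed to 11.8 to 35.9 CPM in control and 40.4 to 110 CPM in permissive libraries (6 markers, 2 of 5 tested rose). Spiral ganglion neuron markers summed to 3.71 to 4.11 and 38.6 to 94.2 CPM (6 markers, 2 of 3 tested rose). Blood and macrophage markers summed to at most 43.1 CPM in control and at least 60.9 CPM in permissive libraries (1 of 4 tested rose). The lists below had lower sums in permissive libraries. Pillar and Deiters cell markers summed to 2450 to 2890 CPM in control and 1060 to 1170 CPM in permissive libraries (3 of 8 fell). Inner phalangeal and border cell markers summed to 1500 to 2120 and 637 to 846 CPM (3 of 6 fell). Markers of Hensen and Claudius cells, which lie lateral to the organ of Corti, summed to 228 to 314 CPM in control and 21.3 to 30.7 CPM in permissive libraries (6 markers, 2 of 5 tested fell, none at 0). Melanocyte and stria markers summed to 225 to 488 and 8.49 to 32.8 CPM (6 markers, 2 of 3 tested fell), with Dct and Tyr at 0 in both groups and Pmel and Kcne1 at 0 in permissive libraries. Schwann and satellite glia markers summed to 483 to 929 and 95.4 to 211 CPM (6 markers, 2 of 4 tested fell), with Gfra3 at 0 in control libraries. Markers of the greater epithelial ridge, the medial epithelium under the forming gel, summed to 1100 to 1160 and 209 to 565 CPM (2 of 7 fell and 3 rose, none at 0). The part of these markers' cells in the fall of the tectorial membrane genes was not tested. The mitochondrial ribosomal RNA mt-Rnr2 took 1.83% to 26.1% of counts at 48 h. Without the library of its highest share in each group, Tecta differed by −5.64, Tectb by −3.12, Otog by −3.51, Otogl by −4.79 and Otoa by −3.81 on the log2 scale, and each kept its call.

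DAPT-treated cells without Atoh1-GFP showed no such difference from control cells. Tecta was at 8690, 3370 and 4410 CPM in nonpermissive replicates 1 to 3, a log2 fold change of −0.29 ± 0.50 against control. The wide spread followed replicate 1, which was as high as control replicate 1, while replicates 2 and 3 were below control replicate 2. Tectb was at 14500, 13300 and 16000 CPM (0.20 ± 0.44), and Otog was at 1030, 976 and 964 CPM (−0.10 ± 0.38). Otoa was at 307, 329 and 223 CPM (0.30 ± 0.63) and Otogl at 62.3, 49.7 and 17.0 CPM (−0.25 ± 0.86). All 5 genes overlapped the control libraries. By edgeR 0 of 5 were called (adjusted p 0.966 to 0.994), 0 had an unadjusted p under 0.05, and DESeq2 also called 0. Few genes of any kind were called here, 0.0671% of 13411 rising and 0.127% falling, so this count is near its background. The value ± 2 SE ran from −1.29 to 0.71 for Tecta and from −1.97 to 1.47 for Otogl, so changes of such size were not detectable with these libraries. In the same comparison 0 of 9 supporting cell markers (2060 to 2630 CPM summed) and 1 of 12 hair cell markers (265 to 351 CPM summed), Atoh1, were called by edgeR. Of 9 Notch response genes, 2 fell. That list summed to 3180 to 3410 CPM in control and 627 to 1110 CPM in nonpermissive libraries. Endothelial markers summed to 11.8 to 35.9 and 83.9 to 219 CPM (6 markers, 1 of 5 tested rose).

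In the direct comparison of the DAPT-treated cells, all 5 genes again fell, and differences between genes were not tested. In permissive against nonpermissive cells, the log2 fold change was −5.02 ± 0.54 for Tecta, −4.51 ± 0.94 for Otogl, −3.60 ± 0.62 for Otoa, −3.28 ± 0.38 for Otog and −3.25 ± 0.43 for Tectb. Every permissive library was below every nonpermissive library for each of these genes, and the share of all genes without overlap was not counted. These 5 of 5 falls stand beside 6.35% of 13411 genes that fell and 6.78% that rose, and the adjusted p was at most 0.00601. Permissive cells held 3.08% of the nonpermissive mean of Tecta and 10.5% of that of Tectb. The 3 comparisons of 48 h share libraries with each other, so their values are given side by side and not counted as separate evidence.

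**Figure D2:**
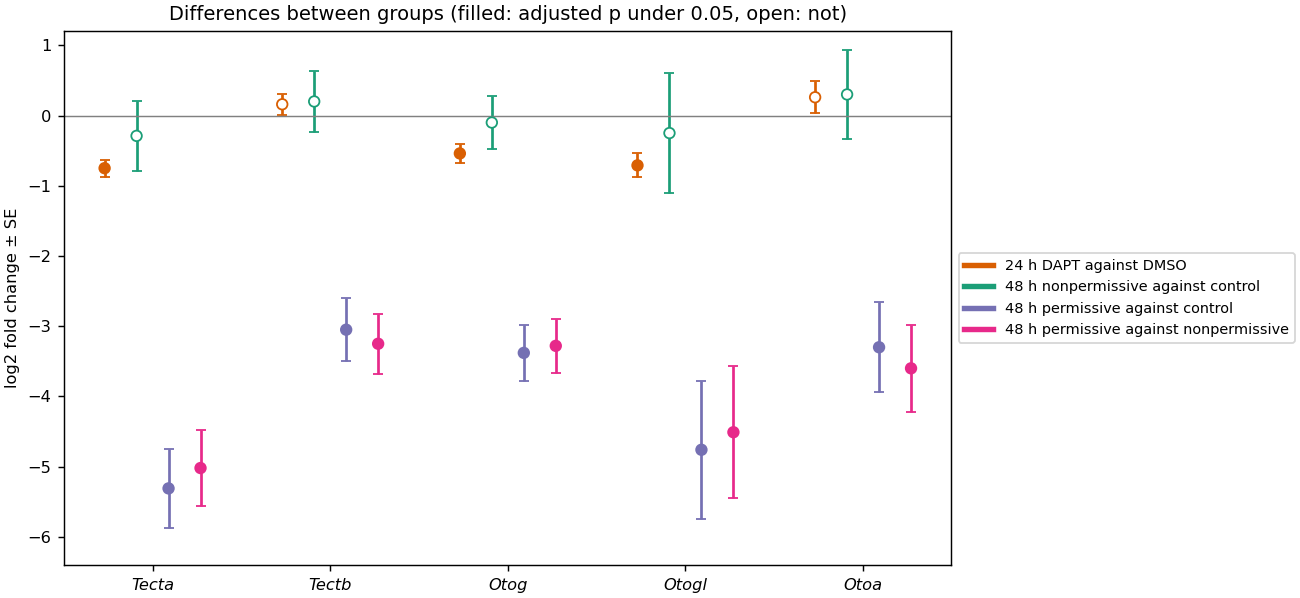
Log2 fold change (vertical axis) with its standard error for the 5 tested genes in 4 comparisons; filled points have an adjusted p under 0.05 by edgeR. Permissive cells lie between −5.31 and −3.05 for all 5 genes, the nonpermissive values scatter around 0, and at 24 h Tecta, Otog and Otogl lie below 0.

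Permissive cells differed more from control cells at 48 h than DAPT from DMSO cells did at 24 h, by a test of the difference itself in all 14 libraries. Permissive cells were selected for Atoh1-GFP, so their log2 fold changes hold that selection as well as DAPT. The permissive log2 fold change against control minus that of 24 h was −4.62 ± 0.54 for Tecta, −4.04 ± 0.93 for Otogl, −3.63 ± 0.73 for Otoa, −3.27 ± 0.44 for Tectb and −2.89 ± 0.33 for Otog. All 5 differences were called, beside 5.63% of 15159 genes. Otogl lost this call without control replicate 1 of 48 h (adjusted p 0.0844). For nonpermissive cells the same difference was between 0 and 0.43 for the 5 genes and 0 of 5 were called by edgeR (0 at an unadjusted p under 0.05), beside 0.0924% of 15159 genes. Time, sort and kit cannot be told apart in these differences.

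Some ratios between the genes separated the groups, and none passed a test. The ratio of Tecta to Tectb in TPM was 0.261, 0.203 and 0.242 with DMSO and 0.136, 0.123 and 0.112 with DAPT at 24 h. It was 0.538 and 0.522 in control, 0.549, 0.249 and 0.305 in nonpermissive and 0.0641, 0.139 and 0.155 in permissive libraries at 48 h. The DAPT libraries lay below all DMSO libraries and the permissive libraries below all other 48 h libraries. The nonpermissive libraries fell into a high one, at the control level, and a lower pair.

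Such a ratio is taken within a library and so does not depend on library scaling. Its log2 difference was −0.92 at 24 h (two-sided exact permutation p = 0.1, 0.3 after adjustment over 12 ratio comparisons), which is the smallest p that 3 against 3 libraries allow. It was −1.64 in permissive against nonpermissive cells (exact permutation p = 0.1, adjusted 0.3) and −2.25 in permissive against control cells (exact permutation p = 0.2, adjusted 0.48, the smallest p of 3 against 2). With these numbers of libraries an exact permutation test cannot go below a threshold of 0.05, and no other test of the ratios was run. The ratio of Otog to Tectb was 0.0404, 0.0430 and 0.0361 with DMSO and 0.0249, 0.0231 and 0.0255 with DAPT, without overlap (exact permutation p = 0.1, adjusted 0.3). At 48 h it was 0.0495 and 0.0699 in control and 0.0442, 0.0342 and 0.0753 in permissive libraries, which overlapped. The ratio of Otoa to Tecta was 0.0795, 0.0547 and 0.0733 with DMSO and 0.143, 0.164 and 0.121 with DAPT, again without overlap (exact permutation p = 0.1, adjusted 0.3). At 48 h it was 0.0237 and 0.0444 in control, 0.0353, 0.0939 and 0.0474 in nonpermissive and 0.0439, 0.104 and 0.261 in permissive libraries, which overlapped (permissive against control exact permutation p = 0.4, adjusted 0.533).

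**Figure D3:**
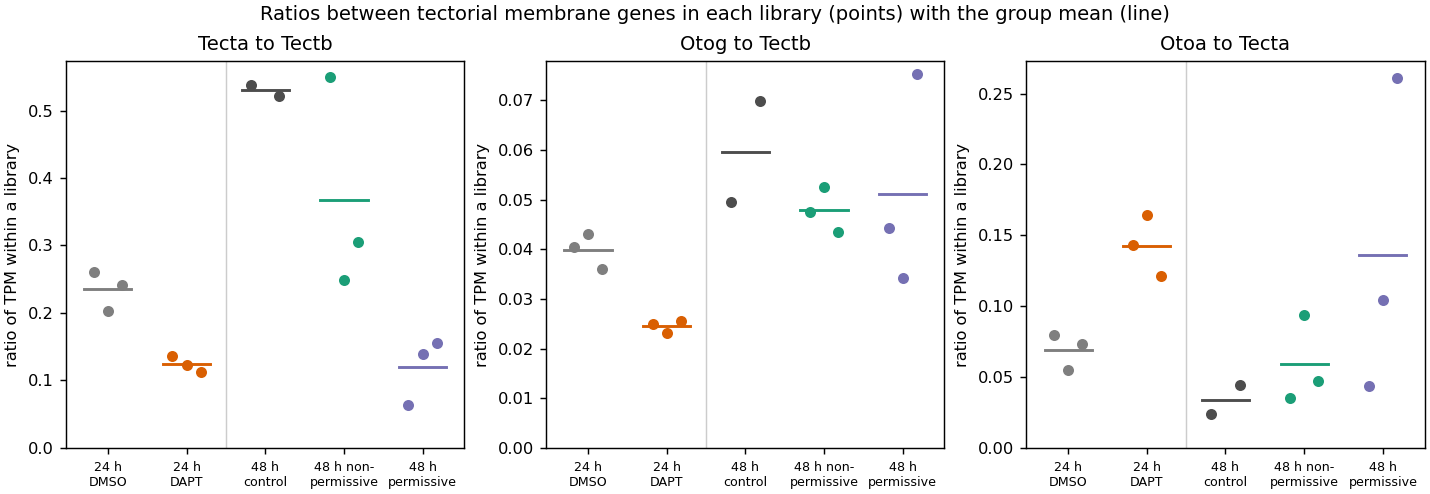
Ratio of TPM between 2 genes in each RNA library (points) with the group mean (line), each axis starting at 0. The Tecta to Tectb ratio is lower with DAPT at 24 h and in the permissive libraries at 48 h, while the Otog to Tectb ratio of the permissive libraries overlaps that of the other 48 h libraries.

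For each gene, the 3 genes of most similar pattern were taken as those with the smallest root mean square difference of log2 CPM, centred within each time, over the 14 libraries and among 11899 genes. For Tecta these were Fhdc1 (0.34), Fam198a (0.36) and Plxna4 (0.39). For Tectb they were Trpm3 (0.31), Spock1 (0.33) and Lpcat2 (0.34), and for Otog they were Sdc4 (0.18), Trpm3 (0.19) and Tgfb2 (0.19). For Otoa they were Tnfrsf19 (0.38), Rlbp1 (0.46) and Col27a1 (0.49), and for Otogl, whose low counts make every difference larger, Gal3st3 (0.69), Arsb (0.73) and Fam124b (0.75). Within the set, Otog and Tectb were the closest pair, at a difference of 0.34. Otog was the gene of rank 4 by closeness to Tectb, and Tectb was at rank 17 from Otog. Tecta and Tectb differed by 0.86, with Tectb at rank 138 from Tecta and Tecta at rank 758 from Tectb.

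Collagens form the fibrils of the gel, and most of the 8 listed collagen genes fell with DAPT at 24 h and in permissive cells at 48 h. At 24 h 6 of 8 fell and 0 rose (median log2 fold change −0.68). In permissive against control cells 7 of 8 fell and 0 rose (median −3.15), and in permissive against nonpermissive cells 6 of 8 fell (median −2.57). In nonpermissive against control cells 0 of 8 were called. Col2a1, the main fibrillar collagen of the gel, was at 7120 ± 190 CPM with DMSO and 4410 ± 357 CPM with DAPT at 24 h (log2 fold change −0.69 ± 0.10, adjusted p 0.00141). Col11a1, which joins it in the fibril, fell by 3.96 on the log2 scale in permissive against control cells (SE 0.48, adjusted p 0.000202). Col9a2 and Col9a3 did not pass the test at 24 h (0.03 ± 0.12 and −0.07 ± 0.11). Connective tissue also expresses these collagens, and the mesenchyme markers given above differed between libraries of one group. The part of mesenchyme in the collagen values was not tested.

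A list of otoconial and other inner ear matrix genes, which also holds the hair cell gene Strc, was less uniform. Of its 8 genes, 2 (Sparcl1 and Oc90) fell and 0 rose at 24 h (median log2 fold change −1.02), and in permissive against control cells 2 fell and 1 rose (median −1.99). Otol1, a collagen-like protein of the otoconial membranes of the vestibule, was at 66.3 ± 5.87 CPM in control and 7.08 ± 3.70 CPM in permissive cells (log2 fold change −3.24 ± 0.55, adjusted p 0.00156), and at 24 h it differed by −0.11 ± 0.16. Sparcl1, a secreted matricellular protein, fell at both times (−1.10 ± 0.18 and −3.27 ± 0.78). Strc, which encodes stereocilin and is made by hair cells that contact the gel, rose in permissive cells, to 14.6 ± 3.96 CPM from 1 count in both control libraries together (adjusted p 0.0154). In permissive against nonpermissive cells 2 of the 8 fell and 1 rose, and in nonpermissive against control cells 0 were called. Oc90, the main otoconial matrix protein, was called near the threshold at 24 h (−3.41 ± 1.08, adjusted p 0.0487), where the DMSO libraries held 4.39, 9 and 85.6 CPM from lowest to highest and the DAPT libraries 1.03, 3.85 and 4.27 CPM. At 48 h Oc90 was at 103 ± 105 CPM in control and 103 ± 168 CPM in permissive cells. Its spread between libraries was as large as its level.

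The chromatin around the genes was described by the peaks deposited for each library, merged into regions wherever they overlapped by 1 base. Within 100 kb of the 6 genes there were 444 ATAC regions and 296 H3K27ac regions, of which 33 and 20 had a peak in all 6 libraries. The peak lists give presence or absence per library, and an exact permutation test of 2 libraries against 2 cannot go below p = 0.333, so the patterns are given as counts with no test. The ATAC lists ranged from 86995 peaks in permissive replicate 1 to 170918 in permissive replicate 2, and the H3K27ac lists from 46161 in nonpermissive replicate 2 to 114533 in permissive replicate 1, so the absence of a peak also depends on the length of a list. Fold enrichment below is the authors' value for a peak, or its largest where a region held several, and ranks peaks within 1 list only.

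At the second start of Tecta, the ATAC region chr9:42399786-42400226 held a peak in both control libraries (fold enrichment 5.75 and 4.83) and both nonpermissive libraries (2.46 and 4.11) and in neither permissive library. This region covers the second of the printed Tecta windows. At the first start, chr9:42401145-42401887 held a peak in control (3.29 and 3.20) and nonpermissive libraries (5.72 and 8.14) and in permissive replicate 2 (3.84). One H3K27ac region, chr9:42396341-42402641, spanned both starts, with a peak in both control (6.09 and 7.71) and both nonpermissive libraries (10.35 and 9.79) and, again, in permissive replicate 2 alone of the permissive libraries (3.98).

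The Tectb start lay in an H3K27ac region, chr19:55179501-55184368, that held a peak in all 6 libraries. Its ATAC region, chr19:55180471-55180894, had a peak in both nonpermissive libraries (2.88 and 3.61) and in permissive replicate 2 (3.64) and in neither control library. The Otog start, in chr7:46240563-46241165, had an ATAC peak in all 6 libraries, and its H3K27ac region, chr7:46240292-46242101, had one in control replicate 2, both nonpermissive libraries and permissive replicate 1. The Otoa start had an ATAC peak in chr7:121083100-121083589 in control replicate 2, both nonpermissive libraries and permissive replicate 2. Its H3K27ac region, chr7:121082972-121087077, had one in both control and both nonpermissive libraries and in permissive replicate 2. At Otogl, an H3K27ac region over the higher-coordinate end of the gene, chr10:107908589-107914794, and an ATAC region 2177 bases inside that end, chr10:107909665-107910202, had peaks in all 6 libraries. Ceacam16, which gave almost no RNA, had an ATAC peak in all 6 libraries over its lower-coordinate end, chr7:19851764-19852705, where the gene Gm19345 also starts.

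**Figure D4:**
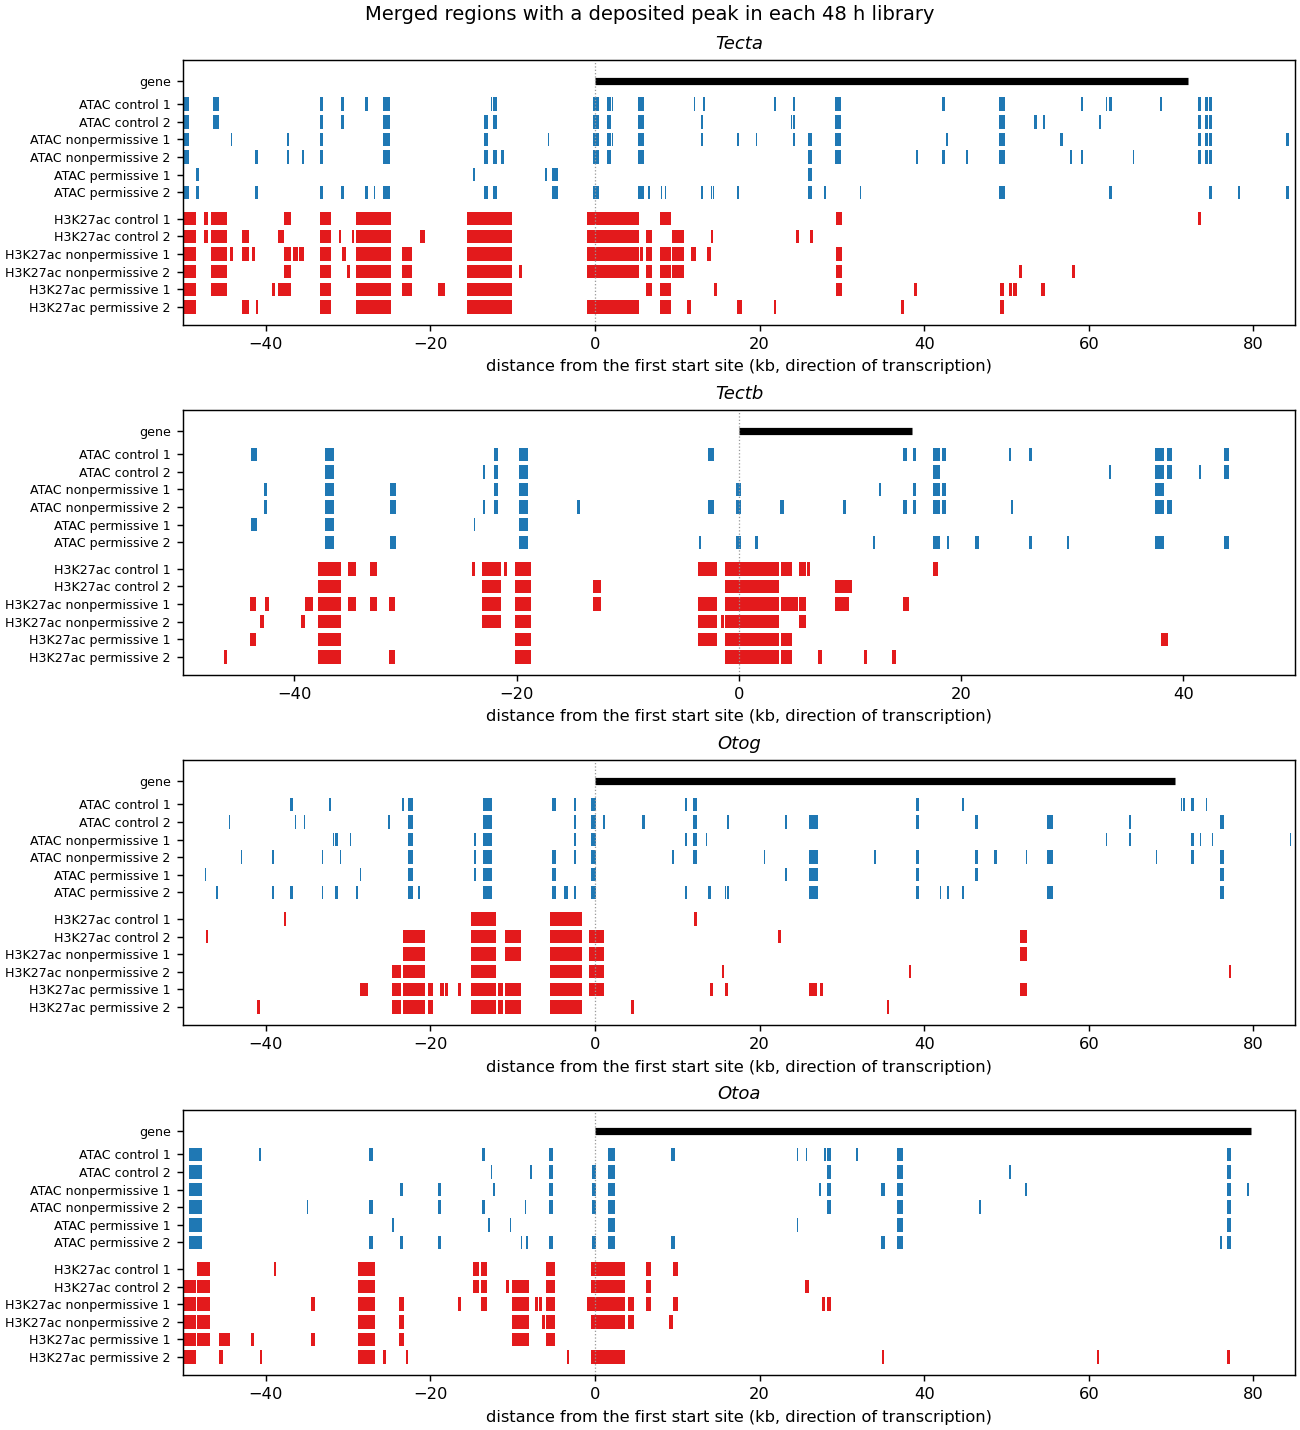
Merged regions (boxes) that held a deposited ATAC (blue) or H3K27ac (red) peak in each 48 h library, by distance from the first start site in kb along the direction of transcription; the black bar is the gene, and a box has the width of the merged region, not of the single peak. At Tecta the 2 permissive ATAC rows lack boxes that the control and nonpermissive rows share, and the H3K27ac box over the Tectb start is present in all 6 rows.

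With the starts included, regions open in control and absent in permissive cells were found near every gene. A peak in both control and neither permissive libraries was present in 17 of 444 ATAC regions (3.83%, beside 2.44% of all 361954 merged regions), 7 of them near Tecta. The region at the second Tecta start, described above, is among these 7. Without control replicate 1, where 1 control peak suffices, the share near the genes was below that of all regions (11.9%, beside 12.7%). Of the 17, 8 also had a peak in both nonpermissive libraries, and 5 had one in neither. Inside Tecta, chr9:42371751-42372500, which lies 27447 bases from the second start, had fold enrichments of 4.74 and 4.03 in control and 3.34 and 4.82 in nonpermissive libraries. Upstream of Tectb, chr19:55158700-55159041, 21685 bases from the start, had 5.35 and 2.90 in control and 2.81 and 4.83 in nonpermissive libraries. It lay within an H3K27ac region, chr19:55157639-55159331, that likewise had a peak in all 4 control and nonpermissive libraries and in neither permissive library. This was the only place near the 6 genes where an ATAC and an H3K27ac region with that pattern overlapped. Inside Otog, chr7:46252964-46253392 had 4.78 and 2.56 in control and 2.87 and 4.34 in nonpermissive libraries, and inside Otoa, chr7:121111596-121112095 had 3.31 and 3.56 in control and 2.10 and 4.37 in nonpermissive libraries. For H3K27ac, 7 of 296 regions had a peak in both control and neither permissive libraries (2.36%, beside 1.73% of 232408), 3 near Otoa, 2 near Tecta and 1 each near Tectb and Ceacam16.

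Regions with peaks in permissive and not in control cells lay outside the 6 genes, with 1 exception in each assay, both inside Tecta. A peak in both permissive and neither control libraries was present in 10 ATAC regions (2.25%, beside 3.20% of all) and 13 H3K27ac regions (4.39%, beside 3.93%). With lists cut to the same number of peaks, these were 9 ATAC regions (3%, beside 4.57% of all) and 3 H3K27ac regions (1.67%, beside 3.81%), so the H3K27ac share went from above to below that of all regions. Of the 10 ATAC regions, 10 had the higher fold enrichment in permissive replicate 2, so a mean of both libraries leans on that longer list. By the mean of both permissive values, the highest ATAC region was chr10:107719824-107720467, 40063 bases from Otogl, with fold enrichments of 3.21 and 13.39 in the permissive libraries. It overlaps Ptprq, a phosphatase gene of the hair bundle, whose RNA was at 1.80 ± 1.49 CPM in control and 147 ± 107 CPM in permissive cells (log2 fold change 6.40 ± 1.02, adjusted p 0.00105). Ptprq was named after its values were seen. Upstream of Otog, chr7:46143891-46144438 within Abcc8 had 3.72 and 9.50, and it overlapped an H3K27ac region of the same pattern, chr7:46143724-46144616. Of the 13 H3K27ac regions, 6 were near Otog, 3 of them in Ush1c, which encodes the scaffold protein harmonin of the hair bundle and starts just before Otog. Ush1c RNA was at 80.8 ± 33.6 CPM in control and 48.5 ± 14.2 CPM in permissive cells (log2 fold change −0.73 ± 0.47, adjusted p 0.373). Near Tecta, chr9:42406160-42406856, 4470 bases upstream of the first start, had an ATAC peak in both permissive libraries (2.88 and 6.47) and in no other library.

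Most ATAC regions with nonpermissive and without permissive peaks lay near Tecta and Tectb. Of the ATAC regions near Tecta, 6 had a peak in both nonpermissive and neither permissive libraries and 2 in both control and neither nonpermissive libraries. For Tectb these counts were 5 and 2. Over the 6 genes, 16 ATAC regions (3.60%, beside 2.13% of all) and 10 H3K27ac regions (3.38%, beside 2.36%) had a peak in both nonpermissive and neither permissive libraries. In the opposite direction, 9 ATAC regions (2.03%, beside 3.16%) and 10 H3K27ac regions (3.38%, beside 2.90%) had a peak in both permissive and neither nonpermissive libraries. A peak in both nonpermissive and neither control libraries was present in 10 ATAC (2.25%, beside 1.14%) and 7 H3K27ac regions (2.36%, beside 1.75%). A peak in both control and neither nonpermissive libraries was present in 9 ATAC (2.03%, beside 1.37%) and 2 H3K27ac regions (0.676%, beside 0.396%). Most of these shares differ from the background by few regions, and no test of the difference was made. With lists cut to the same number of peaks, some went below the background. For H3K27ac these were permissive without nonpermissive (1.67%, beside 3.24%), nonpermissive without control (0.556%, beside 2.15%) and control without nonpermissive (0.556%, beside 0.887%). Nonpermissive without permissive stayed above (ATAC 5%, beside 3.8%, and H3K27ac 10%, beside 4.84%), as did ATAC nonpermissive without control (2.33%, beside 1.38%).

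**Figure D5:**
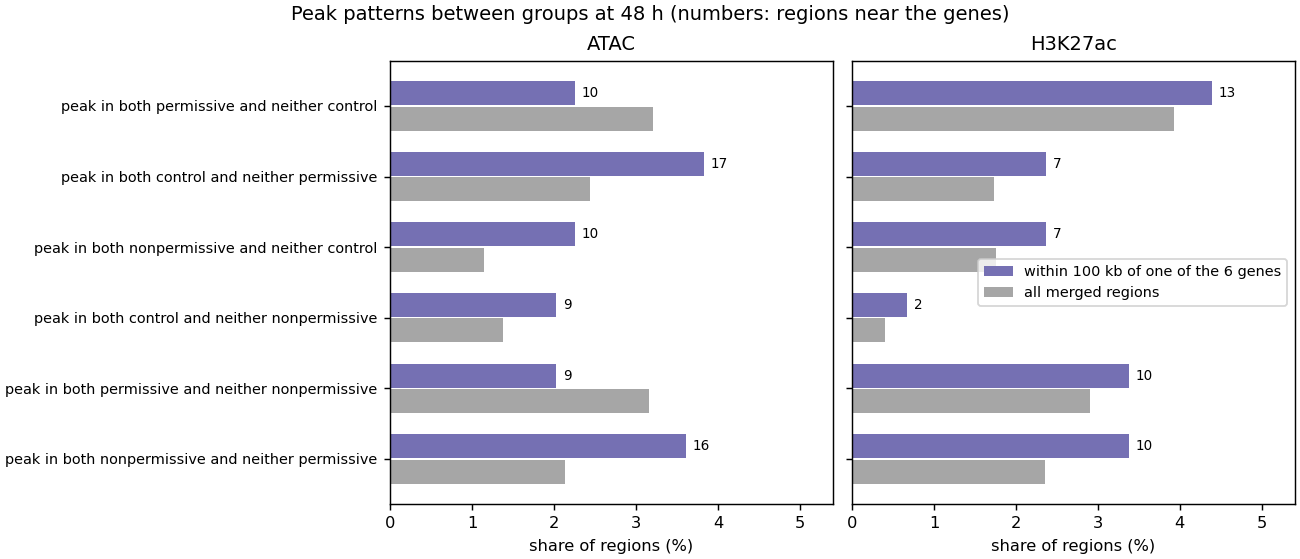
Share of merged regions (%, horizontal axis from 0) with a peak in both libraries of one 48 h group and neither of another, within 100 kb of the 6 genes (purple, with the number of regions) and over all merged regions (grey). For ATAC, the pattern of control without permissive peaks is at 3.83% near the genes and 2.44% over all regions.

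Other genes in the same neighbourhoods moved with or against the tectorial membrane genes. Tbcel, the tubulin cofactor-like gene upstream of Tecta, was at 288 ± 47.3 CPM in control and 78 ± 25.8 CPM in permissive cells (log2 fold change −1.88 ± 0.44, adjusted p 0.0109). Acsl5, an acyl-CoA synthetase gene downstream of Tectb, also fell in that comparison (−1.84 ± 0.52, adjusted p 0.0329), and so did Bcam, an adhesion gene near Ceacam16 (−1.81 ± 0.49, adjusted p 0.0258). Kcnc1, a potassium channel gene downstream of Otog, rose (adjusted p 0.0172), to 11.3 ± 5.69 CPM from 2 counts in both control libraries together. Mettl9 beside Otoa (0.49 ± 0.47) and Sc5d beside Tecta (0.23 ± 0.71) did not pass the test. Tbcel and Acsl5 had smaller log2 fold changes than Tecta and Tectb beside them, and that difference was not tested.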

How the data were processed

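RNA values are the deposited RSEM expected counts per gene, 1 table per library. The deposited TPM of the same tables was used to compare genes within a library. Per the submitters' processing notes, STAR and RSEM were used on mm10; no version, setting or strand handling is given in the sources used here, so reads of Tecta and of the overlapping noncoding gene Gm47629 cannot be told apart. Identifiers were matched to symbols without their version suffix, for 48349 of 48709 (99.3%). Expected counts were rounded, filtered with filterByExpr, scaled by TMM and tested with the quasi-likelihood test of edgeR 4.0.16 (R 4.3.3), two-sided, with Benjamini-Hochberg adjustment over all genes and a threshold of 0.05. The 6 libraries of 24 h and the 8 of 48 h were fitted separately, except for the differences between times. Errors are SDs for levels and SEs for log2 fold changes. The procedure was tested on simulated counts.

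Peak lists were called for each library, and the submitters' processing notes name Bowtie2, MACS2 and UMI-tools. The deposited fold enrichment (a ratio) was used to describe peaks within a list, and the deposited −log10 q-value to restrict lists in an alternative; the −log10 p-value was not needed. Intervals listed more than once were counted once. The number of reads behind the lists is unknown. The gene and promoter tables are RefSeq of GRCm38.p6; 38.3% to 48.4% of its promoter windows held an ATAC peak, against 2.24% to 5.21% of windows moved by 1000000 bases. That table gives gene bounds, so regions are placed inside or beside a gene without exon or intron.

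Same-numbered permissive and nonpermissive libraries deviated together from their group means (r = 0.375, 0.104 and 0.113 over 13411 genes for replicates 1, 2 and 3). Unmatched nonpermissive replicate 3 with permissive replicate 2 gave 0.102. Control replicates 1 and 2 gave 0.357 and 0.061 with the same-numbered permissive library, and control replicate 2 gave 0.292 with permissive replicate 3. The labels do not say what a number shares. The reported tests were therefore unpaired, and replicate numbers were used only in the replicate block, an alternative.

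The 6 genes and the lists were chosen with earlier results of these data known. Named by rule were the 6 genes, the collagen and matrix lists, genes starting within 100 kb, the 3 nearest patterns of each gene, start-site regions and the region of highest mean fold enrichment for a pattern. Hes5, Atoh1 and Lfng were named as checks of treatment and sort. Ptprq and some further regions were named after their values were seen. Of the other lists, up to 3 genes of smallest adjusted p could be named. Alternatives were DESeq2 1.42.0, other scalings, no filter, a replicate block, fits of only the compared groups, leaving out single libraries and other rules for peaks.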

Additional observations from a re-analysis of the deposited data

Results flagged for a closer look

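For all 5 tested genes, permissive cells differed from control cells at 48 h by another amount than DAPT from DMSO cells at 24 h. The test was of the difference itself in edgeR over 14 libraries. Permissive cells were selected for Atoh1-GFP, so their log2 fold changes hold that selection as well as DAPT. The permissive log2 fold change minus that of 24 h was −4.62 for Tecta, −3.27 for Tectb, −2.89 for Otog, −4.04 for Otogl and −3.63 for Otoa. For Tectb and Otoa the 24 h values had been above 0 without passing the test (0.16 and 0.26), and the permissive values were −3.05 and −3.30. Leaving out the 48 h control replicate 1 took the Otogl difference to −3.26 and its adjusted p to 0.0844, and the other 4 genes kept their call in each alternative run (15 alternatives). These values cannot separate the time from the sort or the kit.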

How the results depend on the processing

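In the 15 alternatives run for each 48 h comparison, all 5 genes kept direction and call in permissive against control and against nonpermissive cells; Otogl ranged most, from −7.9 to −4.1 against control, the low end without permissive replicate 1, which leaves 1 count in that group. At 24 h Tecta kept its call in all 11 alternatives. Leaving out single libraries gave 1 to 3 called genes of the 5 (1 without DAPT replicate 1) and 2573 to 4948 genes called in all, with Tectb at 0.00 to 0.28 and Otoa at 0.00 to 0.44. Genes called ranged from 1066 to 1738 in permissive against control cells (1066 and 1086 without control replicate 1 and 2, beside 1743), from 2 to 40 in nonpermissive against control cells (2 without nonpermissive replicate 3), and for the differences from 24 h from 531 to 1062 (permissive) and from 0 to 54 (nonpermissive).

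Values that did not pass the test changed sign when single libraries were left out. Nonpermissive against control ranged from −0.79 to 0.17 for Tecta, −0.15 to 0.55 for Tectb, −0.30 to 0.04 for Otog and −0.76 to 0.41 for Otogl. Its difference from 24 h ranged from −0.09 to 0.95 for Tecta, −0.31 to 0.41 for Tectb, −0.04 to 1.15 for Otogl and −0.17 to 0.26 for Otoa, and with library totals only it was −0.07 for Tectb, −0.06 for Otoa, with 7 genes called. With the replicate block, Otogl was at 0.41 in nonpermissive against control cells, and permissive against nonpermissive was −4.90 for Tecta and −3.31 for Tectb; the block changed no call of the 5 genes. Genes called in nonpermissive against control cells were 151 by DESeq2, 302 without a filter, 49 with the 2 groups alone, and 26 as reported. Without the library of highest mt-Rnr2 share in each group, an alternative chosen after seeing the data, 881 genes were called against control in permissive and 0 in nonpermissive cells, and Tectb was at −0.03 in the latter. The cause of these shifts was not tested, apart from the fewer libraries fitted.

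Counts of regions depended on the rules for peaks, and so did their relation to the share of all regions with the same pattern. Patterns 1 to 6 are, in order, permissive without control, control without permissive, nonpermissive without control, control without nonpermissive, permissive without nonpermissive and nonpermissive without permissive. Peaks with a −log10 q of at least 10 gave 1, 5, 1, 1, 1 and 7 ATAC regions and 0, 0, 1, 0, 0 and 3 H3K27ac regions. Their shares were 1.23%, 6.17%, 1.23%, 1.23%, 1.23% and 8.64% for ATAC, beside 2.36%, 2.95%, 0.678%, 1.01%, 2.38% and 2.37% of all regions, and for H3K27ac patterns 3 and 6 they were 2.17% and 6.52%, beside 2.77% and 1.17%. A window of 50 kb gave 6, 11, 5 and 5 ATAC regions for patterns 1, 2, 4 and 5 (1.92%, 3.51%, 1.6% and 1.6%, beside 3.2%, 2.44%, 1.37% and 3.16% of all). It gave 8 and 4 H3K27ac regions for patterns 1 and 3 (3.72% and 1.86%, beside 3.93% and 1.75%). Lists cut to equal length gave 5 ATAC regions for pattern 4 (1.67%, beside 1.78% of all). They gave 3, 1, 1, 3 and 18 H3K27ac regions for patterns 1, 3, 4, 5 and 6. These H3K27ac shares were 1.67%, 0.556%, 0.556%, 1.67% and 10%, beside 3.81%, 2.15%, 0.887%, 3.24% and 4.84% of all, so only pattern 6 of these stayed above. Joining summits within 150 bases gave 5 H3K27ac regions for pattern 4 (0.951%, beside 0.997%). Leaving out 1 library, so that 1 peak suffices, gave 15 to 94, 18 to 79, 16 to 69, 10 to 70, 9 to 94 and 17 to 71 ATAC regions and 18 to 70, 9 to 34, 14 to 63, 2 to 25, 13 to 60 and 12 to 73 H3K27ac regions, so counts from 2 libraries rest on both. Among these, the share near the genes went from above to below that of all regions for ATAC pattern 2 without control replicate 1 (11.9% beside 12.7%), pattern 3 without nonpermissive replicate 1 (11.7% beside 12.7%) and pattern 4 without control replicate 1 (10.4% beside 11.8%) or nonpermissive replicate 2 (3.38% beside 3.84%). It did so for H3K27ac patterns 1 and 5 without either permissive replicate and pattern 4 without control replicate 2 or nonpermissive replicate 1. Pattern 6 stayed above in both assays in each of these, with no test made. Depth limits Otogl in permissive cells (23 counts in all) and Ceacam16 everywhere.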
